A study of Homo sapiens with 8 samples.

Results

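The interleukin-1 (IL-1) family genes described here are the ligands IL1A, IL1B, IL1RN, IL18 and IL33, the receptor chains IL1R1 and IL1RAP, and the inflammatory caspases CASP1 and CASP4. They were chosen by gene symbol, as 9 of the 57445 genes in the deposited count table. All 9 were in the table, and 7 passed the filter on low counts, which asked for a mean of at least 10 counts over the 8 libraries. IL1RN and IL33 did not pass. Ribosome-bound RNA was measured in MDA231-BrM2, a breast cancer cell line selected for growth in the brain, by translating ribosome affinity purification (TRAP), a pull-down with anti-GFP beads that recovers polysome RNA from the tagged cancer cells of a mixed lysate. The 4 groups held 2 libraries each. Cells with a control hairpin (consh) were cultured alone or with astrocytes, and cells with hairpin Cx43sh1 or Cx43sh2 (hairpins 1 and 2) against connexin 43 (product of GJA1, a gap junction channel) were cultured with astrocytes. Cocultures lasted 24 h at 1 astrocyte per cancer cell. All groups came from this 1 line and all carried a hairpin, the labels do not name the species of the astrocytes, and Cx43-depleted cells were never sampled without astrocytes. An effect of the Cx43 hairpins that does not need astrocytes cannot be told apart from one that does. The series text calls the libraries independent replicates without saying whether they came from separate cultures, so the p-values measure the spread between these libraries only.

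IL-1 alpha and IL-1 beta bind the same receptor, IL1R1, which then recruits IL1RAP and the adaptor MYD88 and activates NF-kB and MAP kinases. IL-1 beta and IL-18 are made as inactive precursors that caspase-1 cuts inside inflammasomes, whereas IL-1 alpha is active before cleavage, and IL1RN encodes a secreted antagonist of the receptor. Caspase-4 is activated by cytosolic lipopolysaccharide and cleaves gasdermin D, which forms membrane pores. In the brain IL-1 is known as a signal between microglia, astrocytes and endothelium, and carcinoma cells can both make it and respond to it. RNA bound to ribosomes says nothing about cleavage or secretion of these proteins, which were not measured.

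Each library held 38219702 to 48997555 reads counted in genes. Levels are given as CPM, counts scaled to a common library total, on library sizes scaled by trimmed mean of M-values (TMM) factors. A floor of 3 counts stood at 0.0624 to 0.0805 CPM. GJA1, the targeted gene, lay at 51.1 and 46.3 CPM in cells alone, at 65.9 and 64.6 CPM in the control cocultures, at 27.8 and 27.8 CPM with hairpin 1, and at 31.7 and 33.8 CPM with hairpin 2. Its rise of 0.42 with astrocytes (adjusted p = 0.00665) lost its call without library 2 of cells alone (0.34, adjusted p = 0.0616) or control coculture library 1 (0.41, adjusted p = 0.0507), and the hairpin cocultures were also below cells alone (-0.69, adjusted p = 0.000366). Markers of microglia and macrophages, cells known to express IL1B and CASP1, summed to 84.7 to 86.0 CPM in cells alone, 145 to 147 CPM in control cocultures, 131 to 142 CPM with hairpin 1 and 151 CPM with hairpin 2. LAPTM5, a lysosomal membrane protein gene, held most of this sum in every library, including 83.0 and 84.6 CPM in cells without astrocytes. Of the 12 markers, AIF1, CX3CR1, P2RY12, TYROBP, CD163, FCER1G and SPI1 were at 3 counts or fewer in all 8 libraries. The 3 markers that passed the filter (LAPTM5, CD14 and CSF1R) all rose in coculture and none passed the test with either hairpin. The rise of CD14 lost its call without library 1 of cells alone (adjusted p = 0.0606), and that of CSF1R without library 1 or 2 of cells alone or control coculture library 1 (adjusted p = 0.0569, 0.0502 and 0.0727). The 10 astrocyte markers summed to 51.5 to 55.6 CPM in cells alone, 69.95 to 71.3 CPM in control cocultures, 63.8 to 72.1 CPM with hairpin 1 and 58.2 to 58.4 CPM with hairpin 2, with GJB6 and S100B at 3 counts or fewer in every library. Of the 7 astrocyte markers tested, 3 rose with astrocytes, 1 rose and 1 fell with hairpin 1, and 0 passed with hairpin 2. The endothelial sum was 8.38 to 10.4 CPM in cells alone, 11.4 to 12.2 CPM in control cocultures and 9.22 to 10 CPM with the hairpins, and 1 of 2 tested markers rose with astrocytes. The 8 markers of the carcinoma line summed to 2970 to 3160 CPM in cells alone, 3870 to 3871 CPM in control cocultures, 2935 to 2983 CPM with hairpin 1 and 2840 to 2905 CPM with hairpin 2. Of these 8, 3 rose and 1 fell with astrocytes, and 2 fell with each hairpin. Their sum was highest where IL1A, IL1B and CASP1 were. VIM was its largest part, at means of 1410 CPM in cells alone, 2134 CPM in control cocultures, 1488 CPM with hairpin 1 and 1364 CPM with hairpin 2. EGFR, EPCAM and LGALS1 had lower means in control cocultures than in cells alone. The share of alignments that were not unique was 14.2% to 26.1%, highest in library 1 of the control coculture. The part of these markers and of this share in the results was not tested.

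IL1B and IL1A lie near each other on chromosome 2, and the bases before their start sites are printed because both ligands changed and bind the same receptor. The windows are the 250 bases before a RefSeq start, on the minus strand of GRCh38.p14, at chr2:112836780-112837029 for IL1B and at chr2:112784494-112784743 for the upstream start of IL1A. RefSeq entries were matched for 7 of the 9 members, not for CASP1 and IL18. Capitals mark matches to the motifs searched.
IL1B: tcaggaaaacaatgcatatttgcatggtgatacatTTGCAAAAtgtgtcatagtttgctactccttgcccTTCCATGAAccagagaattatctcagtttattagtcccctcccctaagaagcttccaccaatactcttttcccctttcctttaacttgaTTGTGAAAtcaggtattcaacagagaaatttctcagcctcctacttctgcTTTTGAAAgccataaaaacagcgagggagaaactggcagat
IL1A: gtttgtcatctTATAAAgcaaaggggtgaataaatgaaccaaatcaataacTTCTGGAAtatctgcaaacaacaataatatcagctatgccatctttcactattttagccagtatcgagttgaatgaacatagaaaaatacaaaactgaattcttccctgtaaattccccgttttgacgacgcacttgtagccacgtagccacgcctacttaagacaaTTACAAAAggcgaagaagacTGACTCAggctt
The motifs were the interferon-gamma activated site GAS (TTCNNNGAA), the interferon-stimulated response element ISRE (GAAANNGAA), AP-1 (TGANTCA), C/EBP (TTNNGNAA) and the NF-kB consensus on both strands, and the TATA box (TATAAA) on the gene's strand. The IL1B window held 1 GAS match, 180 to 172 bases before the start, and C/EBP matches at 215 to 208, 91 to 84 and 41 to 34 bases. The IL1A window held an AP-1 match at 12 to 6 bases, C/EBP matches at 199 to 192 and 32 to 25 bases, and a TATA match at 239 to 234 bases. Neither printed window held an ISRE or NF-kB consensus match. The overlapping window of the other IL1A start, not printed, held AP-1 matches at 105 to 99 and 55 to 49 bases. It also held a C/EBP match at 125 to 118 bases and no TATA match, so the matches depend on the start used. Among 35116 windows of this length, 6.57% held GAS, 6.57% AP-1, 6.88% ISRE, 9.96% the NF-kB consensus, 33.2% C/EBP and 6.80% TATA. A match describes letters only.

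Astrocytes were accompanied by higher levels of both IL-1 ligands, both receptor chains and CASP1 in control cells. Of the 7 tested members, 5 rose, 0 fell and 2 did not pass the test, beside 8.74% of all 15806 tested genes that rose and 2.93% that fell. The median log2 change of the 7 was 0.99 beside -0.003 over all tested genes. With hairpin 1, IL1A, IL1B and CASP1 fell and 0 members rose, beside 4.73% of genes that fell and 3.09% that rose. With hairpin 2, IL1A and CASP1 fell and 0 rose, beside 3.20% of genes that fell and 0.962% that rose. For the mean of both hairpins, the same 3 members as with hairpin 1 fell, beside 5.85% of genes that fell and 3.37% that rose. The median member changes were -0.42 with hairpin 1 and -0.28 with hairpin 2, against -0.009 and -0.003 over all tested genes. The comparisons with each hairpin share the control cocultures, and all comparisons use the same 2 libraries of a group.

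**Figure D1:**
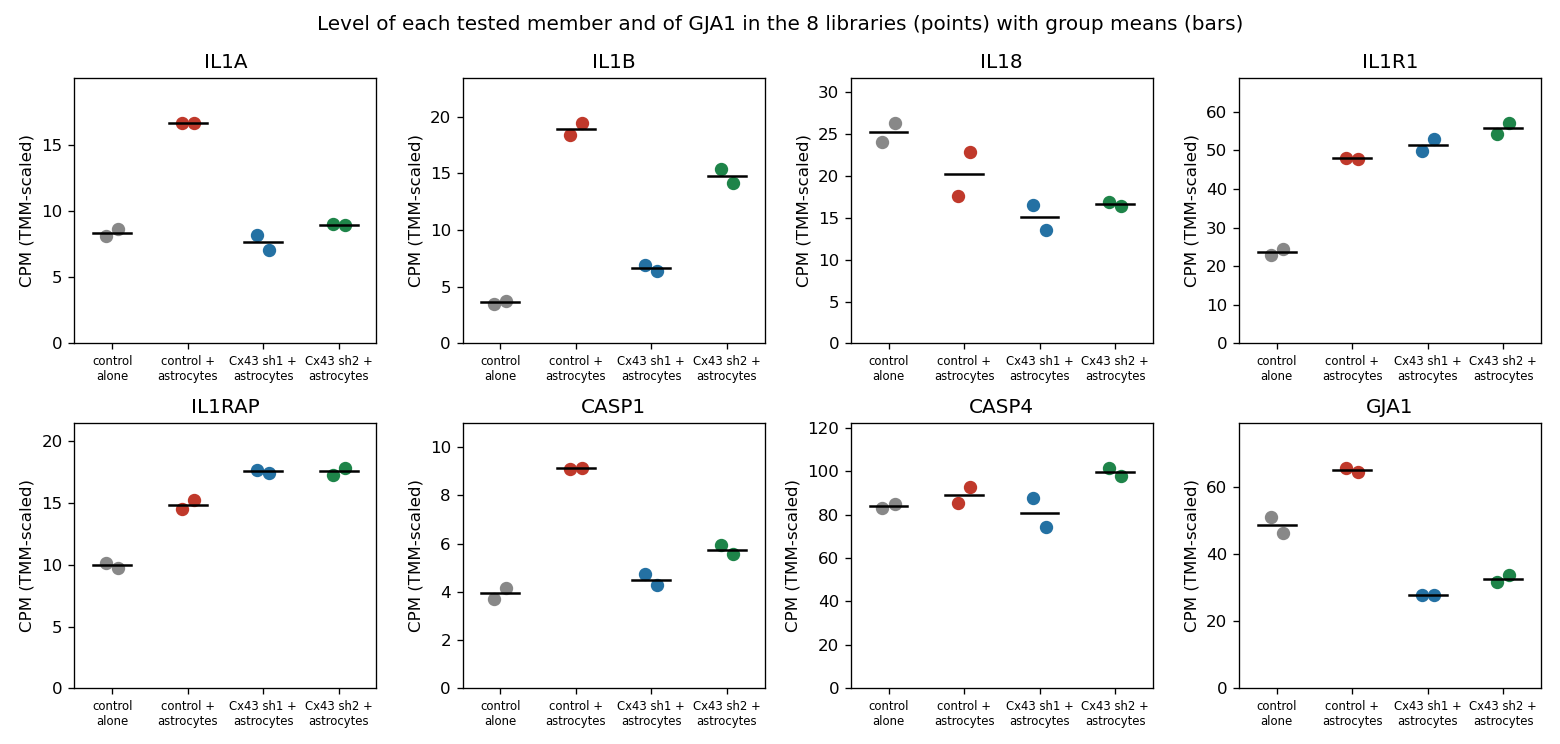
Level of each tested member and of GJA1 in the 8 libraries (CPM on a linear axis from 0; points are libraries, bars are means of 2 libraries, groups along the horizontal axis). IL1A and CASP1 are highest in the control cocultures, IL1B is at 14.1 and 15.4 CPM with hairpin 2 and at 6.37 and 6.94 CPM with hairpin 1, and IL1R1 and IL1RAP stay above their level in cells alone with either hairpin.

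IL1B, which encodes the secreted, inflammasome-processed ligand, showed the largest change with astrocytes among the members. Without astrocytes it stood at 3.45 and 3.78 CPM, and in control cocultures at 18.4 and 19.5 CPM. With hairpin 1 it was 6.94 and 6.37 CPM, and with hairpin 2 it was 15.4 and 14.1 CPM. The 4 groups did not overlap, and hairpin 2 lay closer to the control cocultures than hairpin 1 did. In bulk libraries such as these, fewer cells with a transcript and less of it per cell cannot be told apart. IL1B rose 5.22-fold with astrocytes (log2 2.38, SE 0.10, adjusted p = 1.16e-06). It fell with hairpin 1, being 2.84-fold lower (log2 -1.51, SE 0.09, adjusted p = 2.43e-05). With hairpin 2 the change of -0.36 (95% interval -0.56 to -0.16) missed the threshold (adjusted p = 0.0623). That call turned with the setting, passing at 0.0463 with no filter on low counts, 0.0436 with only the groups compared in the fit, and 0.0442 and 0.0440 without library 1 or library 2 of hairpin 1.

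IL1A, the ligand that needs no cleavage to bind its receptor, rose with astrocytes and fell with each hairpin. Its values were 8.09 and 8.61 CPM without astrocytes and 16.7 and 16.7 CPM in control cocultures. Hairpin 1 cocultures stood at 8.21 and 7.05 CPM, and hairpin 2 cocultures at 8.99 and 8.93 CPM. Both control cocultures were above every other library. IL1A rose 1.99-fold with astrocytes (log2 1.00, SE 0.09, adjusted p = 0.000214). It was 2.18-fold lower with hairpin 1 (log2 -1.13, adjusted p = 0.000173) and 1.86-fold lower with hairpin 2 (log2 -0.89, adjusted p = 0.000821). The difference between the hairpins was 0.23 (95% interval 0.01 to 0.45, adjusted p = 0.705).

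IL18, a caspase-1 substrate that drives interferon-gamma production by lymphocytes, did not move with the other ligands. Without astrocytes IL18 was at 24.1 and 26.4 CPM, and in control cocultures at 17.6 and 22.9 CPM. With hairpin 1 it was 16.6 and 13.6 CPM, and with hairpin 2 it was 16.9 and 16.4 CPM. Cells alone held the 2 highest values, and the control cocultures were spread more widely than their distance from the hairpin libraries. None of the 3 comparisons passed the test (astrocytes -0.32, adjusted p = 0.165; hairpin 1 -0.43, adjusted p = 0.0953; hairpin 2 -0.28, adjusted p = 0.302). Without library 1 of hairpin 1, the hairpin 1 change was -0.57 and passed (adjusted p = 0.0427). With no filter on low counts, 6 members were called with astrocytes, against 5 in the reported fit. IL18 and CASP4 were the tested members not called with astrocytes in the reported fit.

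The remaining ligands were at the floor. IL1RN, the receptor antagonist, had 1 and 2 counts in cells alone, 3 and 3 in control cocultures, 0 and 1 with hairpin 1, and 1 and 2 with hairpin 2. IL33, a nuclear alarmin that signals through IL1RL1 and IL1RAP, had 0 and 3, then 1 and 2, then 2 and 1, then 1 and 1 counts in the same order. No fold change is given for either. A difference between groups was not detectable at this depth.

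The receptor chains rose with astrocytes and did not fall with the hairpins. IL1R1, which binds both ligands, was at 23.0 and 24.5 CPM in cells alone, 48.1 and 47.7 CPM in control cocultures, 49.9 and 53.1 CPM with hairpin 1, and 54.2 and 57.2 CPM with hairpin 2. Every coculture lay above both libraries of cells alone, and every hairpin library lay above both control cocultures. IL1R1 rose 2.02-fold with astrocytes (log2 1.01, SE 0.07, adjusted p = 3.55e-05). The hairpin changes were 0.10 (95% interval -0.05 to 0.26, adjusted p = 0.387) and 0.22 (0.06 to 0.37, adjusted p = 0.126).

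IL1RAP, the accessory chain needed for signalling, was also lowest in cells alone. It was at 10.1 and 9.77 CPM in cells alone, 14.5 and 15.3 CPM in control cocultures, 17.7 and 17.5 CPM with hairpin 1, and 17.3 and 17.9 CPM with hairpin 2. Both hairpins lay above the control cocultures and overlapped each other. IL1RAP rose 1.496-fold with astrocytes (log2 0.58, SE 0.08, adjusted p = 0.00166). The mean of both hairpins differed from the control cocultures by 0.24 (95% interval 0.10 to 0.39, adjusted p = 0.0516), which passed with upper-quartile scaling (0.25, adjusted p = 0.0486). In GENCODE 29, which is not the authors' build, IL1RAP shares 535 exon bases with AC108747.1 on the same strand and IL1R1 shares 11 with IL1R1-AS1 on the other, and the strand setting of the counting is not given in the sources used here.

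CASP1, the protease that matures IL-1 beta and IL-18, rose with astrocytes and fell with each hairpin. Its level was 3.70 and 4.18 CPM in cells alone, 9.07 and 9.15 CPM in control cocultures, 4.74 and 4.27 CPM with hairpin 1, and 5.93 and 5.57 CPM with hairpin 2. The groups did not overlap, and both control cocultures were above every other library. CASP1 rose 2.31-fold with astrocytes (log2 1.21, SE 0.11, adjusted p = 0.000163). It was 2.02-fold lower with hairpin 1 (log2 -1.01, SE 0.11, adjusted p = 0.000839) and 1.59-fold lower with hairpin 2 (log2 -0.66, SE 0.10, adjusted p = 0.00914). The hairpin 2 call was lost when library 1 or 2 of the control cocultures was left out (-0.67 and -0.65, adjusted p = 0.0581 and 0.0757) and when library 1 or 2 of hairpin 2 was (-0.71 and -0.62, adjusted p = 0.0809 and 0.138). CASP1 and its neighbour CARD16 are near-identical over part of their length, so how reads were split between them is uncertain. CARD16 had means of 5.1 CPM in cells alone, 7.3 CPM in control cocultures, 3.6 CPM with hairpin 1 and 5.7 CPM with hairpin 2.

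CASP4, the lipopolysaccharide-sensing caspase, was the most abundant member and did not pass the test in any comparison. It was at 82.8 and 84.6 CPM in cells alone, 85.5 and 92.7 CPM in control cocultures, 87.4 and 74.3 CPM with hairpin 1, and 102 and 97.7 CPM with hairpin 2. Hairpin 1 overlapped the other groups except hairpin 2, which held the 2 highest values. The change with astrocytes was 0.09 (95% interval -0.11 to 0.29, adjusted p = 0.547), with hairpin 1 -0.14 (-0.34 to 0.06, adjusted p = 0.351) and with hairpin 2 0.16 (-0.03 to 0.36, adjusted p = 0.348). Its paralog CASP5, whose reads could be confused with it, had 0 or 1 count in every library.

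**Figure D2:**
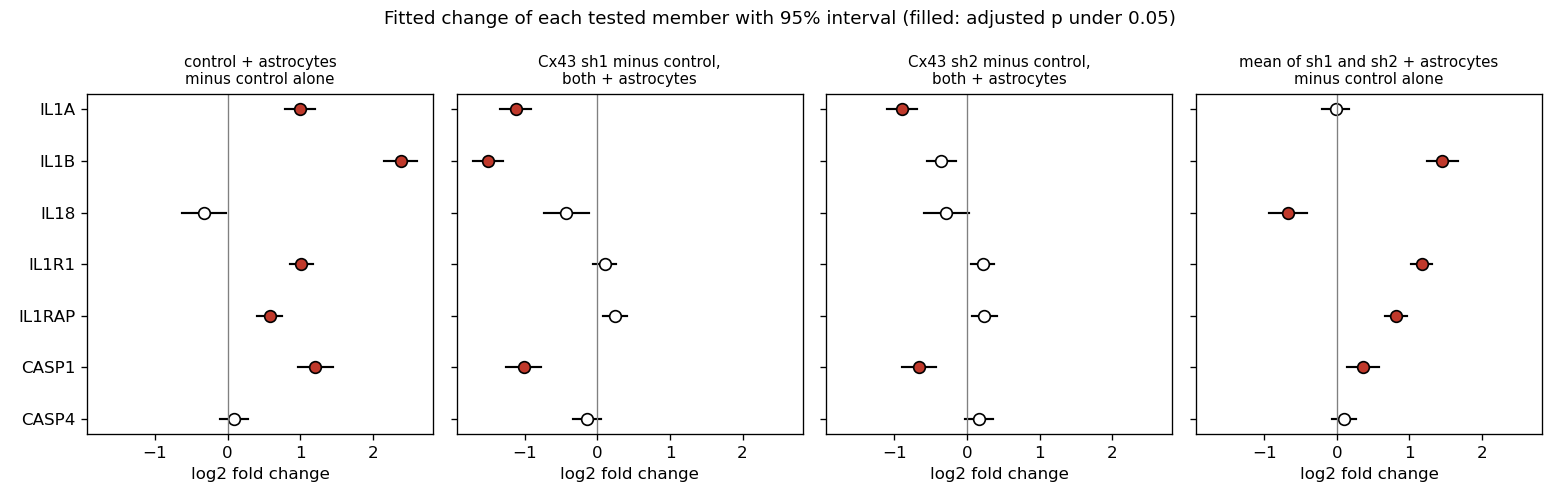
Fitted log2 change of the 7 tested members with astrocytes, with each hairpin, and for the mean of both hairpins minus cells alone. Lines are 95% intervals, and points are filled where adjusted p is under 0.05. IL1B runs from 2.38 with astrocytes to -1.51 with hairpin 1 and -0.36 with hairpin 2, and the intervals of IL1R1 and IL1RAP reach no lower than -0.05 with either hairpin.

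The hairpins differed at IL1B. Hairpin 2 minus hairpin 1 gave 1.15 on the log2 scale (SE 0.09, 95% interval 0.94 to 1.36), or 2.22-fold, with an adjusted p of 0.00678. IL1B was the 1 member called, beside 0.0253% of all tested genes that were higher with hairpin 2 and 0.00633% that were lower, which is 4 genes and 1 gene. It had the smallest p of the genes that were higher. The call was lost without library 1 or library 2 of hairpin 2 (1.09 and 1.21, adjusted p = 0.190 and 0.0666). The other 6 members had an adjusted p of at least 0.705, among them CASP1 at 0.35 (95% interval 0.10 to 0.60) and CASP4 at 0.30 (0.11 to 0.50). GJA1 itself differed by 0.24 (0.07 to 0.41, adjusted p = 0.705), with more left under hairpin 2. The part of remaining GJA1 in the IL1B difference was not tested. Among the other called genes, named after their values were seen, were OAS2 (log2 0.61), RPN1 (0.52) and HSPA6 (1.66), and the calls of these 3 were lost without any 1 of the 8 libraries.

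Against cells that never met astrocytes, the hairpin cocultures kept part of the profile and lacked another part. For the mean of both hairpins minus control cells alone, 4 of the 7 members rose, 1 fell and 2 did not pass, beside 10.8% of genes that rose and 6.34% that fell. IL1B rose 2.74-fold (log2 1.45, SE 0.09, adjusted p = 7.31e-05). That mean covers unlike levels of IL1B, 6.7 CPM with hairpin 1 and 14.8 CPM with hairpin 2, beside 3.6 CPM in cells alone. IL1R1 rose 2.25-fold (log2 1.17, adjusted p = 3.3e-05) and IL1RAP 1.77-fold (log2 0.82, adjusted p = 0.000209). The receptor chains were thus well above the level of cells alone in all 4 hairpin libraries. IL1A stood at -0.01 (95% interval -0.20 to 0.17, adjusted p = 0.922), with overlapping libraries, although the comparison cannot show that the levels were equal. CASP1 was 0.37 higher (SE 0.10, adjusted p = 0.0346). That call was lost with DESeq2 (0.36, adjusted p = 0.0723), with only these groups (0.36, adjusted p = 0.0595) and without any of 5 single libraries, namely either library of cells alone, library 2 of the control coculture or either library of hairpin 2, where it ran from 0.27 to 0.45 (adjusted p up to 0.208). IL18 fell by 0.67 (SE 0.11, adjusted p = 0.00711), a call lost without library 2 of cells alone (-0.61, adjusted p = 0.069).

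Levels can be compared between genes only per length, as CPM per kilobase of annotated exon. CASP4 was highest in every group, from 11.1 with hairpin 1 to 13.7 with hairpin 2. In cells alone IL18 followed at 9.60, then IL1A at 3.93, IL1R1 at 3.35, IL1B at 1.17, CASP1 at 1.07 and IL1RAP at 0.861. The ranges of IL1B (1.11 to 1.22) and CASP1 (1.00 to 1.13) overlapped there. In control cocultures IL1A (7.84), IL18 (7.70), IL1R1 (6.76) and IL1B (6.11) lay close together, and the range of IL18, 6.70 to 8.71, covered IL1A and IL1R1. With hairpin 1 the order was IL1R1 7.27, IL18 5.73, IL1A 3.59 and IL1B 2.15, and with hairpin 2 it was IL1R1 7.86, IL18 6.33, IL1B 4.77 and IL1A 4.22. IL1B was thus above IL1A per kilobase in the hairpin 2 cocultures and below it in the other 3 groups. That order depends on the lengths, which join all annotated exons of a gene (3096 bases for IL1B, 2124 for IL1A). Which transcripts were present was not examined. Before scaling by length, IL1B was also above IL1A in control cocultures (mean 18.9 against 16.7 CPM). CASP1 and IL1RAP were the lowest tested members throughout, and IL1RN and IL33 did not exceed 0.0242 in any group mean.

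**Figure D3:**
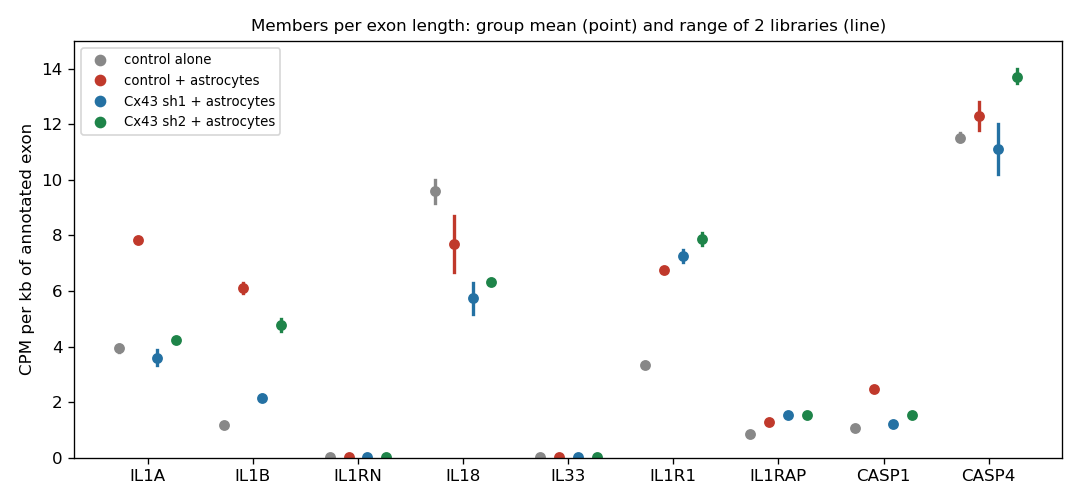
Group mean (points) and range of 2 libraries (lines) of each member in CPM per kilobase of GENCODE 29 exon, on a linear axis from 0. CASP4 is highest in all 4 groups, and IL1B lies below IL1A in each group except hairpin 2, where it is at 4.77 against 4.22. The order of IL1B and IL1A depends on the exon lengths used (3096 and 2124 bases).

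The pattern over the 4 groups was compared with tested protein-coding genes of at least 50 mean counts. Members and clone, antisense, small RNA and open reading frame symbols were left out. The measure was the root mean square difference between centred group means of log2 CPM, with 4 points per gene. The genes most like IL1A were RASD1 (0.0528), SP100 (0.0583), APOBEC3G (0.0591) and LY6E (0.0603). Those most like CASP1 were LMO2 (0.0342), HES4 (0.0702), VWA5A (0.0852) and EREG (0.0899). Those nearest to IL1B were CSF3 (0.175), PTGES (0.373), C1S (0.414) and BHLHE40 (0.418). The measure is not scaled to the size of a gene's own changes, so distances cannot be compared between members that change by unlike amounts. CASP4, which is nearly flat, was nearest to FAM26F (0.0199), OMA1 (0.0217), HECW1 (0.0254) and PDE6D (0.0271).

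Genes known to be inducible by IL-1 were mostly higher with astrocytes and lower with hairpin 1. Of 20 such genes, all tested, 18 rose and 0 fell with astrocytes (median log2 0.95), 18 fell and 0 rose with hairpin 1 (median -0.65), and 8 fell and 0 rose with hairpin 2 (median -0.37). Over all tested genes 8.74% rose with astrocytes, 4.73% fell with hairpin 1 and 3.20% fell with hairpin 2. Other stimuli such as TNF induce most of them too. The granulocyte growth factor gene CSF3 was at 3.17 and 4.12 CPM in cells alone, 21.1 and 24.0 CPM in control cocultures, 7.40 and 6.15 CPM with hairpin 1, and 12.9 and 12.02 CPM with hairpin 2. CSF3 had the order of groups seen for IL1B, with changes of 2.62 (adjusted p = 6.73e-06), -1.73 and -0.86. The hairpin 2 call of CSF3 was lost without control coculture library 2 (-0.75, adjusted p = 0.0655) and without library 1 or 2 of hairpin 2 (-0.91 and -0.81, adjusted p = 0.0787 and 0.126). LIF, a cytokine of the IL-6 group, rose from 70.4 and 65.7 CPM to 145 and 135 CPM with astrocytes. Its means were 116.8 CPM with hairpin 1 and 123.5 CPM with hairpin 2. IL8, the neutrophil chemokine now named CXCL8, fell from 101 and 123 CPM in control cocultures to 55.0 and 42.7 CPM with hairpin 1. Mean IL8 was 66.85 CPM with hairpin 2 and 40.62 CPM in cells alone. With 1 library left out, 15 to 18 of the 20 rose with astrocytes, 8 to 18 fell with hairpin 1 and 0 to 12 fell with hairpin 2. The lowest of these counts were found without library 1 of cells alone, then without control coculture library 2, and then without either library of hairpin 2, respectively. Between the hairpins 0 of the 20 passed, with 12 higher under hairpin 2 at an unadjusted p under 0.05 in edgeR and 2 called by DESeq2. Of all 15806 tested genes, 570 (3.61%) were higher under hairpin 2 at that unadjusted p.

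Among 19 receptor signalling genes, all tested, 4 rose and 1 fell with astrocytes, 2 fell with hairpin 1 and 1 fell with hairpin 2, with no rise under either hairpin. Over all tested genes 8.74% rose and 2.93% fell with astrocytes, and 4.73% and 3.20% fell with hairpins 1 and 2. The falls, at 1 or 2 of 19, are near those shares. The medians were -0.014, 0.065 and 0.015. With 1 library left out, 2 to 6 rose with astrocytes, with 2 when either library of cells alone or control coculture library 1 was missing and 6 when either of hairpin 1 was. With hairpin 1 the count that fell was 1 without any 1 library except library 2 of hairpin 1, and 2 without that. MYD88, the adaptor shared by IL-1 and Toll-like receptors, was at 67.0 and 64.4 CPM in cells alone, 131 and 127 CPM in control cocultures, 74.3 and 77.6 CPM with hairpin 1, and 81.3 and 78.3 CPM with hairpin 2. MYD88 was highest in the control cocultures, rising by 0.97 (adjusted p = 2.41e-05) and falling by 0.76 and 0.69. IRAK2, a kinase-like signal carrier, rose by 0.91 with astrocytes (adjusted p = 0.000226), and PELI2 and IRAK3 rose by 0.45 and 0.42. The last 2 calls were lost without either library of cells alone or without library 1 of the control coculture (PELI2 0.40 to 0.45, adjusted p up to 0.123; IRAK3 0.35 to 0.47, adjusted p up to 0.168). The kinase gene IRAK4, named after its values were seen, fell by 0.27 (adjusted p = 0.0258), a call lost without any 1 library of cells alone, the control coculture or hairpin 2 (-0.32 to -0.24, adjusted p up to 0.140).

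Of 18 inflammasome and pyroptosis genes, 11 were tested, of which 4 rose with astrocytes, 5 fell with hairpin 1 and 2 fell with hairpin 2, with none in the opposite direction. The shares over all tested genes were 8.74%, 4.73% and 3.20%. AIM2, which senses cytosolic double-stranded DNA and activates caspase-1, was at 3.89 and 4.53 CPM in cells alone, 29.2 and 29.8 CPM in control cocultures, 7.65 and 6.71 CPM with hairpin 1, and 8.51 and 8.001 CPM with hairpin 2. AIM2 rose by 2.80 (adjusted p = 5.77e-07) and fell by 2.04 and 1.84. TXNIP, a thioredoxin-binding protein gene, rose by 0.61 and fell by 0.95 and 0.93. NLRP3, the sensor of another inflammasome, rose by 0.60. PYCARD, the adaptor that joins sensors to caspase-1, fell by 0.61 with hairpin 1 (adjusted p = 0.0115), a call lost without library 2 either of the control coculture (-0.51, adjusted p = 0.104) or of hairpin 1 (-0.53, adjusted p = 0.0564), and with only the groups compared in the fit (-0.61, adjusted p = 0.0912). With 1 library left out, the count that fell with hairpin 1 was 2 to 4, the lowest without library 2 of the control coculture.

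The rest of the family was sparsely measured. Of 7 other ligands and binding proteins only the IL-18 antagonist gene IL18BP was tested, and it was not called in any comparison. Of 8 other receptors, 4 were tested, and SIGIRR, an inhibitory receptor, rose by 0.35 with astrocytes (adjusted p = 0.0431), a call lost with DESeq2 (0.33, adjusted p = 0.150), with no filter (0.33, adjusted p = 0.0927), with only the groups compared (0.33, adjusted p = 0.103) and without any 1 library of cells alone, the control coculture or hairpin 2 (0.28 to 0.39, adjusted p up to 0.196).

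**Figure D4:**
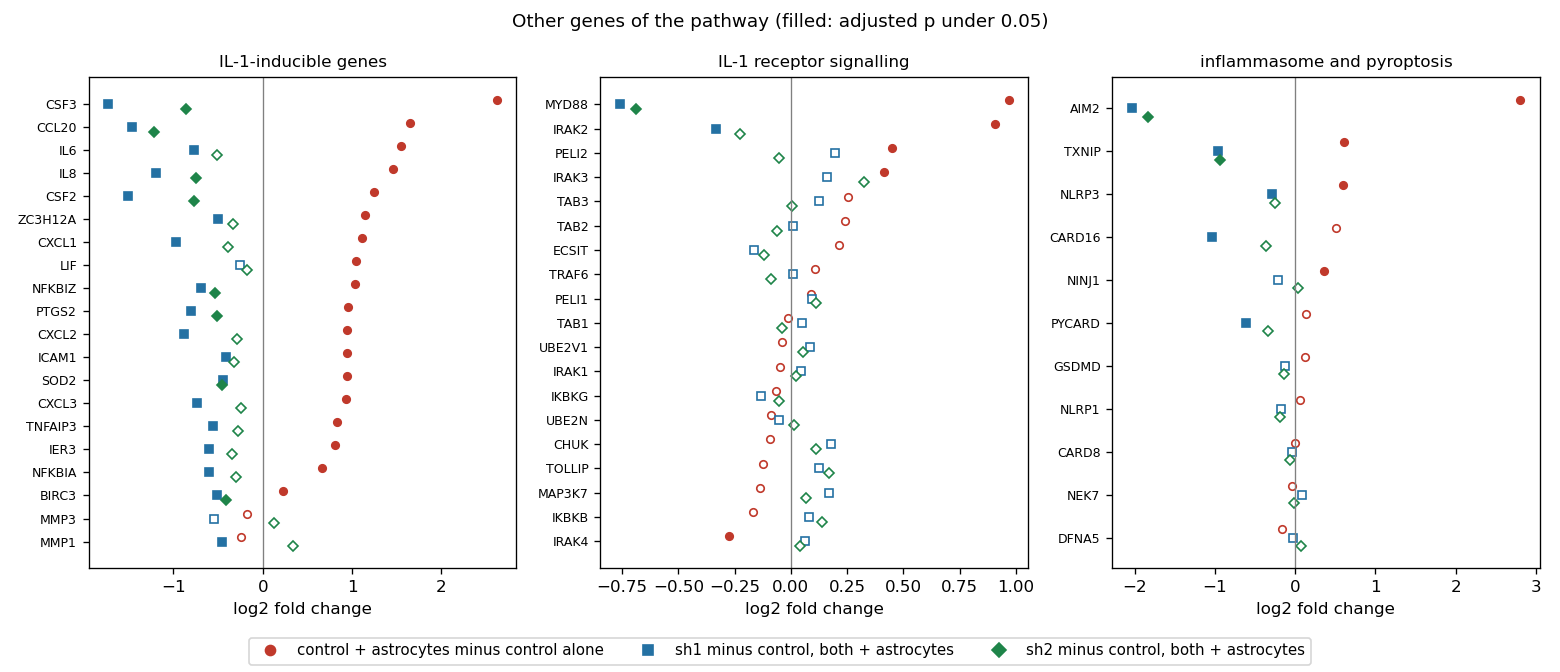
Fitted log2 change of other pathway genes with astrocytes and with each hairpin (symbols filled where adjusted p is under 0.05). AIM2 moves from 2.80 to -2.04 and -1.84, MYD88 from 0.97 to -0.76 and -0.69, and CSF3 from 2.62 to -1.73 and -0.86.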

How the data were processed

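TRAP RNA of 8 libraries was made with the TruSeq RNA v2 kit, per the labels' protocols. Per the submitters' processing notes the tools were TopHat2, HTSeq and DESeq2 and the build hg19, with no versions. The annotation and how HTSeq was set are not given in the sources used here. The authors deposited a table of counts per gene. Its name calls the values normalized, but all were whole numbers and their size factors by median of ratios spanned 0.892 to 1.14, so they were tested as counts. Counter entries (27.1% to 37.4% of each column) were left out.

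Counts were tested in R 4.3.3 with edgeR 4.0.16 (quasi-likelihood test, TMM factors 0.976 to 1.03, mean count of at least 10, 15806 of 57445 genes, 4 groups in 1 fit), with Benjamini-Hochberg adjustment over all tested genes at 0.05. SEs were taken from the test statistic. The procedure was tested on simulated data. The alternatives were DESeq2 1.42.0, upper-quartile factors, no filter, only the groups compared, a replicate block and leaving out each library. Named genes were GJA1, the members, up to 4 genes with the smallest p per list and comparison, and the 4 genes most alike in pattern for IL1A, IL1B, CASP1 and CASP4. Members and lists were chosen with earlier results of these data known. Exon lengths came from GENCODE 29 and promoter windows from RefSeq (GRCh38.p14), neither being the authors' build. Some genes that the naming rule selects are not reported here.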

Additional observations from a re-analysis of the deposited data

Results flagged for a closer look

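IL1B was called between the 2 hairpins, at 1.15 on the log2 scale (2.22-fold higher with hairpin 2, adjusted p = 0.00678 in edgeR). It stood out because 2 groups depleted of the same target differed in a direct test of their difference. Each hairpin's own change from the control cocultures was -1.51 (hairpin 1) and -0.36 (hairpin 2). All 2 of 2 libraries of hairpin 2, at 15.4 and 14.1 CPM, lay above both of hairpin 1, at 6.94 and 6.37 CPM. Over the alternatives tried the difference ran from 1.09 to 1.21, and its adjusted p was above 0.05 with a replicate block (0.0606) and without either library of hairpin 2 (0.190 and 0.0666). Each hairpin is 1 sequence with 2 libraries, so what is particular to a hairpin and what follows from the depth of depletion cannot be told apart.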

How the results depend on the processing

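The called rises of IL1A, IL1B, IL1R1, IL1RAP and CASP1 with astrocytes, and the falls of IL1A, IL1B and CASP1 with hairpin 1, kept their call under every alternative run. With 2 libraries a group, counts of called genes moved widely. With no filter, the genes called were 2805 with astrocytes (1844 in the reported fit), 2269 with hairpin 1 (1236), 1191 with hairpin 2 (658), 304 between hairpins (5) and 4117 for hairpin cocultures against cells alone (2709). With no filter 59.6% of the calls with astrocytes were rises. Members called with no filter were 6 with astrocytes (5 in the reported fit), 4 with hairpin 1 (3), 3 with hairpin 2 (2) and 4 with both hairpins (3). Only the groups compared gave 236 with hairpin 1 (9.32% rises), but 987 with hairpin 2 (658 in the reported fit). Between hairpins it gave 2, where DESeq2 gave 18 and upper-quartile factors 3. The reported fit shares its estimate of spread over the 4 groups, whose libraries spread unequally. Chi-square per degree of freedom between the 2 libraries was 14.1 in cells alone and 22.8 in control cocultures. It was 33.2 with hairpin 1 and 4.26 with hairpin 2. The cause of the moved counts was not tested.

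The replicate numbers did not pair the libraries consistently. Per gene of at least 50 mean counts, the log2 CPM difference between libraries 1 and 2 was taken within each group. Between groups, these differences correlated from -0.673 to 0.392 over 6 pairs of groups, 2 of them over 0.1. With the replicate block the genes called were 1160, 446, 319, 700 (1457 in the reported fit), 0 and 1502 for astrocytes, hairpin 1, hairpin 2, both hairpins, between hairpins and hairpin cocultures against cells alone, and 0 members were called between hairpins. The block also ended the call of CASP1 against cells alone (0.366, adjusted p = 0.0718), and those of IL1B, OAS2, RPN1 and HSPA6 between hairpins and of SIGIRR and IRAK4 with astrocytes, and no other call of a gene the text names.

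With 1 library left out, the lone library being assumed to vary like the rest, genes called ranged from 738 to 2582 with astrocytes, 281 to 2405 with hairpin 1, 150 to 1101 with hairpin 2, 343 to 2314 with both, 0 to 3 between hairpins and 531 to 4717 against cells alone. Members called ranged from 5 to 5, 3 to 4, 1 to 3, 3 to 4, 0 to 1 and 3 to 5 in that order.

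Values near 0 that were never called changed sign. CASP4 with both hairpins ranged from -0.049 to 0.079 with a library left out, and was -0.046, -0.049 and -0.003 without library 1 of the control coculture, hairpin 1 and hairpin 2. IL1RAP between hairpins was 0.003 with DESeq2, 0.002 with no filter, 0.005 with only the groups compared, and -0.026 to 0.023 with a library left out (0.002 and 0.007 among them). IL1A against cells alone ranged from -0.072 to 0.036, and was 0.024 without library 2 of cells alone and 0.036 without library 2 of hairpin 1. The marker CD14 ranged from -0.532 to 0.003 with hairpin 1 and from -0.522 to 0.022 with hairpin 2 with a library left out. Depth limits IL1RN and IL33, which stayed at 3 counts or fewer.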

Other observations

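The ratio of IL1B to IL1A reads within a library needs no scaling between libraries. There were 0.426 and 0.440 IL1B reads per IL1A read in control cells alone, 1.10 and 1.17 in control cocultures, 0.845 and 0.904 with hairpin 1, and 1.72 and 1.58 with hairpin 2. The 4 groups did not overlap, and hairpin 2 had the highest ratio in both libraries. The ratio was computed after the levels of both genes had been seen, and is given without a test because 2 libraries against 2 cannot reach 0.05 in an exact test.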
